A study of Mus musculus with 20 samples.

Results

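Loss of β-catenin was examined in mouse nephron progenitor cells (NPCs) kept in low CHIR, the condition in which NPCs stay uninduced. The comparison holds 6 of the 20 libraries of the series, 3 of β-catenin KO and 3 of CTRL, and was paired by the date that the library names share. Replicates 1, 2 and 3 stand for the earliest to the latest of these dates, and the labels do not say what was done on them. NPCs are the Six2+ mesenchymal cells of the developing kidney that either renew themselves or form the epithelium of new nephrons. They were isolated from E16.5 embryonic kidneys of mice of the genotype Cas9-eGFP, in which the ubiquitous CAG promoter drives Cas9 and eGFP. The β-catenin KO cells were lipofected with sgRNAs against *Ctnnb1* and the CTRL cells with an sgRNA against GFP, both together with mCherry mRNA. KO was allowed to proceed for 48 h. A further 24 h at 1.25 µM CHIR, which the paper describes as a maintenance condition, preceded the sort of mCherry+ cells for mRNA sequencing. Each library is thus a pool of transfected primary cells, not a clone, and all 6 share Cas9-eGFP, the sort and low CHIR. The other groups used here are CTRL and β-catenin KO in high CHIR (5 µM, 3 libraries each) and, in each CHIR condition, 2 libraries of α-catenin KO (*Ctnna1* sgRNA) and 2 of QCKO (sgRNAs against *Cdh2*, *Cdh3*, *Cdh4* and *Cdh11*). The labels do not state whether replicates came from separate litters, so p-values measure the spread between these libraries.

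β-Catenin works in both the nucleus and at the membrane. In Wnt signaling, GSK3β marks it for degradation unless a Wnt ligand or an inhibitor such as CHIR stops the kinase, and β-catenin that accumulates then binds TCF/LEF factors and switches on target genes. At the adherens junction it joins cadherins to α-catenin and thereby to actin. In the kidney a weak Wnt signal maintains NPCs, whereas a strong signal switches on *Wnt4*, *Lef1* and *Jag1* and starts the mesenchyme-to-epithelial transition. The comparison asks which transcripts depend on β-catenin before that strong signal arrives.

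The sgRNAs are shown because they define the KO group. The study lists 4 guides against *Ctnnb1* for its 48 h experiments, written here 5′ to 3′ with the 10 bases next to the PAM in capitals. 
Ctnnb1 sgRNA1, exon2: atgagcagcgTCAAACTGCG
Ctnnb1 sgRNA3, exon3: agccaagcgcTGGACATTAG
Ctnnb1 sgRNA5, exon3: gagattatgcAGTGTCGTGA
Ctnnb1 sgRNA6, exon6: gagattatgcAGTGTCGTGA
The last pair is listed with the same sequence under names for different exons, so the list holds 3 distinct guides. No genome was used here, and their positions were not mapped. The level of *Ctnnb1* itself was not analysed here, since no symbol used here pairs with its identifier. The labels of the β-catenin KO libraries were therefore not checked against that transcript and rest on the submitters' word. The paper reports from imaging that β-catenin KO blocked Jag1 induction and aggregation in high CHIR.

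Read depth was similar in both groups. Recovered read totals ran from 19950784 to 24002950 in CTRL and from 18686329 to 26790287 in β-catenin KO, within the range of all 20 libraries (18124772 to 28472412). The β-catenin KO libraries did not behave as 3 alike replicates, however. Replicates 2 and 3 carried Wnt-responsive transcripts at levels that replicate 1 did not reach, so every library is given below, and results are also given without date 1. Across the 16691 genes tested, the difference between β-catenin KO and CTRL of the same date correlated between dates 2 and 3 with r = 0.475, between dates 1 and 3 with r = 0.218 and between dates 1 and 2 with r = 0.112. These are correlations across genes, which are not independent, and carry no test. In bulk libraries fewer cells with a transcript and less of it per cell cannot be told apart, nor can edited and unedited cells of the sorted pool.

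To place each library between low and high CHIR, genes that respond to CHIR were defined in the 8 libraries of α-catenin KO and QCKO, which belong to neither compared group but share the date terms and the estimate of the spread in limma, so the set is not fully independent of the calls (called where the adjusted p was below 0.05 and the level changed more than 2-fold). There were 776 CHIR-induced (4.65%) and 708 CHIR-repressed genes (4.24%) of the 16691. On a scale on which 0 is the mean of the low CHIR libraries and 1 the mean of the high CHIR libraries of those groups, the CHIR-induced genes put CTRL replicates 1 to 3 in low CHIR at -0.14, 0.082 and -0.0017. The β-catenin KO replicates lay at -0.062, 0.45 and 0.46. Replicate 1 of the KO thus sat among the CTRL libraries, while replicates 2 and 3 lay near the middle of the way to high CHIR. This position is a mean over the set and does not describe each gene. Of the 776 genes, 260 and 305 were more than 2-fold above CTRL on dates 2 and 3, and 42 and 6 more than 2-fold below. CTRL in high CHIR reached 0.83, 0.79 and 0.87, and β-catenin KO in high CHIR 0.12, 0.81 and 0.71, again with replicate 1 far below the others. The CHIR-repressed genes showed a smaller split in low CHIR. Their position was -0.0061, 0.063 and 0.0048 in CTRL and -0.16, 0.092 and 0.076 in β-catenin KO, so KO replicate 1 lay below every other low CHIR library and replicates 2 and 3 above every other, with all 6 nearer the low than the high CHIR end.

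**Figure D1:**
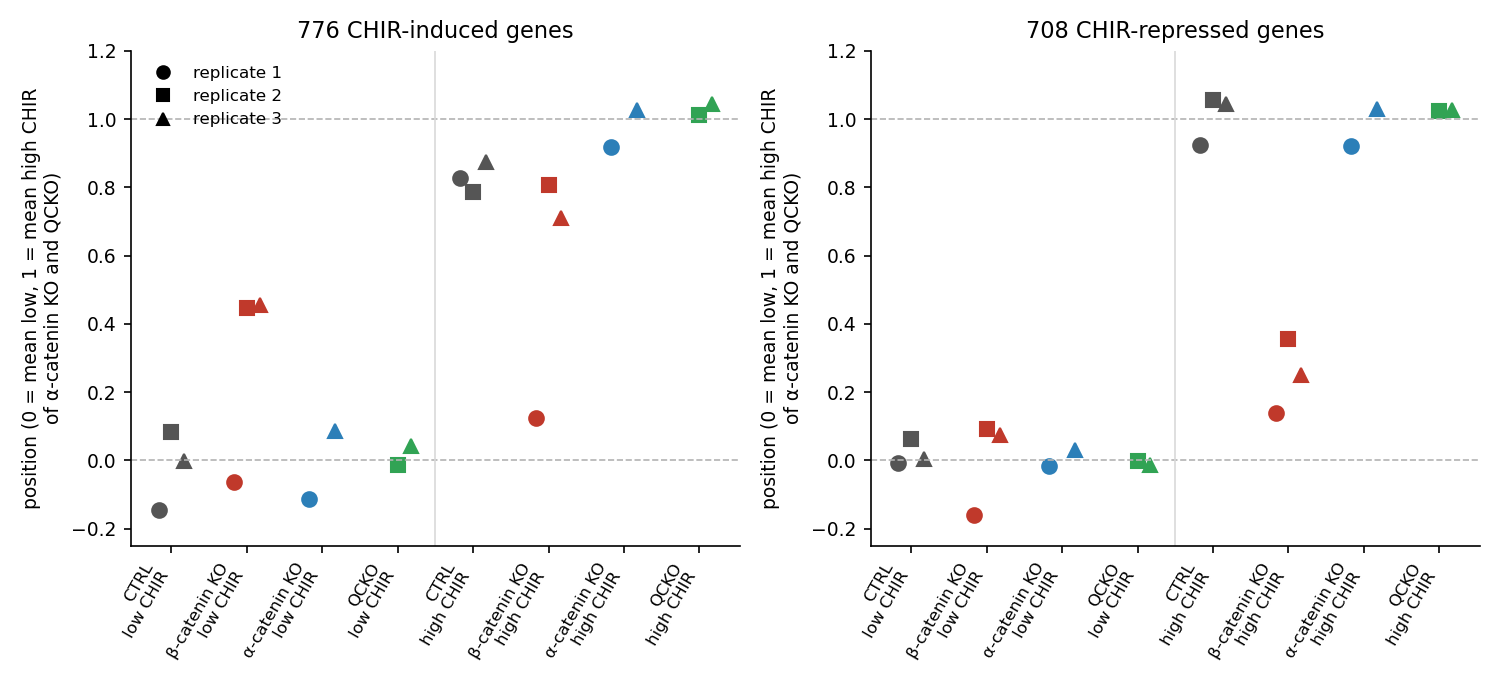
Position of each of the 20 libraries on the scale from low CHIR (0) to high CHIR (1), for 776 CHIR-induced genes (left) and 708 CHIR-repressed genes (right), with symbols for replicates 1 to 3. β-Catenin KO replicates 2 and 3 (red) lie at 0.45 and 0.46 for the induced genes in low CHIR, above every other low CHIR library, while replicate 1 lies at -0.062 and for the repressed genes the 3 lie between -0.16 and 0.092.

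Some classic Wnt targets showed this split. *Axin2*, the feedback scaffold of the destruction complex, had normalized counts of 39.3, 71.5 and 61.4 in CTRL replicates 1 to 3 and 14.0, 559.7 and 384 in β-catenin KO replicates 1 to 3. Values of *Lef1*, which encodes a nuclear partner of β-catenin, were 62.5, 72.6 and 66.7 in CTRL and 62.3, 659.7 and 532 in β-catenin KO. For *Wnt4*, the ligand that drives epithelialization of NPCs, they were 41.1, 72.6 and 72.0 in CTRL and 30.1, 831 and 634 in β-catenin KO. In each of these genes KO replicates 2 and 3 were above every CTRL library, and KO replicate 1 was at or below the CTRL range. None of them was called by limma (*Axin2*, log2 fold change 1.38 ± 0.91 SE, adjusted p = 0.669; *Lef1*, log2 fold change 2.05 ± 0.65 SE, adjusted p = 0.228; *Wnt4*, log2 fold change 2.06 ± 0.69 SE, adjusted p = 0.261). DESeq2 called *Lef1* (adjusted p = 0.0327) and *Wnt4* (adjusted p = 0.0211), in a test that called 2.3% of all genes higher and 0.132% lower. Without date 1, a setting added after the split was seen, limma called *Wnt4* (adjusted p = 0.0262), as it did 0.444% of all genes, and neither *Lef1* (0.0757) nor *Axin2* (0.448).

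Several targets were nearly silent in CTRL. *Notum*, a secreted enzyme that inactivates Wnt ligands, had 3.57, 6.50 and 5.29 in CTRL and 1.07, 562 and 325 in β-catenin KO. *Sp5*, a transcription factor induced by Wnt, had no read in any CTRL library nor in KO replicate 1, but 83 and 74 reads in KO replicates 2 and 3. Against a floor of 3 reads in the CTRL library of the same date, that is at least 25.5-fold higher on date 2 and at least 18.7-fold higher on date 3. The floor covers counting error only. The Wnt receptor *Fzd10*, chosen after its values were seen as was *Sp5*, had 4.46, 1.08 and 2.12 in CTRL and 3.22, 327 and 195 in β-catenin KO. In limma the adjusted p was 0.295 for *Notum*, 0.170 for *Sp5* and 0.140 for *Fzd10*. Without date 1, on which the KO was not above CTRL for these genes, the adjusted p in limma was 0.0449, 0.0350 and 0.0227. That date was left out after this split was seen, so the lower values follow from the choice and are a description. In DESeq2 with all dates the adjusted p was 0.00393, 0.00256 and 0.00239, so these calls turned on the library or the tool.

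The upstream 250 bases of *Sp5* are printed because this Wnt target had no read in 4 of the 6 libraries, and those of *Sptlc3* as a further gene of this pattern in which the motif was found, a choice made after the search. Both come from RefSeq (GRCm38.p6), plus strand, 5′ to 3′, and end at the base before the transcription start. Capitals mark the letters CTTTGAA or CTTTGAT, in either orientation, a core recognized by TCF/LEF factors. The *Sp5* stretch is chr2:70474673-70474922 and the *Sptlc3* stretch is chr2:139493663-139493912.
Sp5: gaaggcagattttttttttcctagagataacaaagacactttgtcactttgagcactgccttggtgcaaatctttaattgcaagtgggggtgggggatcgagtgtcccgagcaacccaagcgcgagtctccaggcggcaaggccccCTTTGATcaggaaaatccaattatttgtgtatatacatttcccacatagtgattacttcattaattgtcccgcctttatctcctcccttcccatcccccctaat
Sptlc3: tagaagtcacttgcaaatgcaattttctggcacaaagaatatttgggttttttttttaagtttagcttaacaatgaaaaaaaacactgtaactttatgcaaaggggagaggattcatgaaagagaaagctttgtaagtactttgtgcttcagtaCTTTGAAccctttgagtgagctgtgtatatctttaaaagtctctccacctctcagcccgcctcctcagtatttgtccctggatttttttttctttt
The motif starts 104 bases before the start of *Sp5* and 96 bases before that of *Sptlc3*. It stands in 7.48% of the 32851 promoters of the table. At least 1 promoter with it was found for 29 of the 357 CHIR-induced genes that have a symbol and a promoter entry (8.12%), for 3 of 26 such called genes, for 172 of the 2546 tested genes with a symbol and an entry (6.76%), and for 8.63% of all 27025 genes of the table. These windows of *Axin2*, *Lef1*, *Wnt4*, *Fzd10*, *Krt23* and *Syk* do not hold these letters, and *Notum* and *Mab21l1* have no entry.

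Of the CHIR-induced genes with a symbol and a mean of at least 100 over the 6 libraries, *Krt23*, *Mab21l1*, *Sptlc3*, *Notum* and *Syk* had the widest range among the KO libraries. *Krt23*, an epithelial keratin, had 0, 1.08 and 2.12 in CTRL and 5.37, 3750.3 and 1438 in β-catenin KO, and *Mab21l1* had 0, 1.08 and 0 in CTRL and 0, 1304 and 659 in β-catenin KO. In CTRL these values rest on at most 2 reads a library, so no fold is given. *Sptlc3*, a subunit of serine palmitoyltransferase, had 0.893, 0 and 4.23 in CTRL and 1.07, 461 and 328 in β-catenin KO, and the tyrosine kinase gene *Syk* 9.82, 10.8 and 12.7 in CTRL and 2.15, 362 and 229.8 in β-catenin KO. Each of these genes was low in all CTRL libraries and in KO replicate 1, and high in KO replicates 2 and 3. That range chose the genes, so the pattern is a description. The levels of *Krt23* and *Mab21l1* in those libraries were also above CTRL in high CHIR, which had 539, 148 and 577 for *Krt23* and 87.3, 22.4 and 128 for *Mab21l1*. The same held for *Fzd10* (20.4, 38.5 and 47.8 in CTRL in high CHIR). By contrast *Wnt4* reached 5286, 4156 and 5401 in CTRL in high CHIR and *Syk* 1445, 817 and 787, well above KO replicates 2 and 3 in low CHIR.

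**Figure D2:**
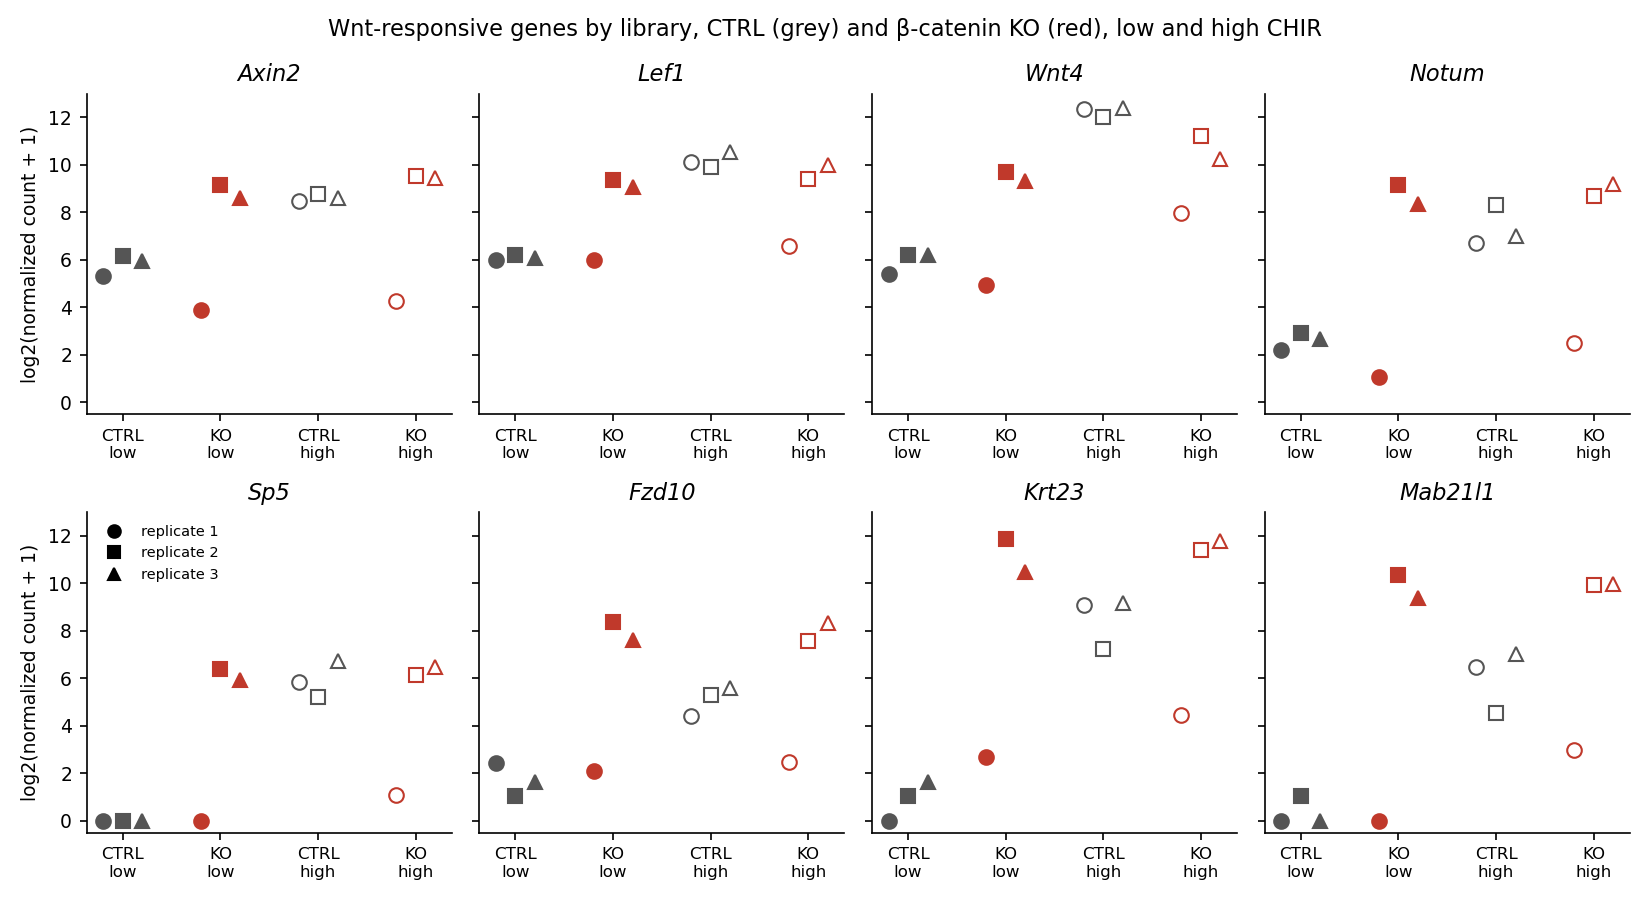
Level of 8 Wnt-responsive genes in each CTRL (grey) and β-catenin KO (red) library in low (filled) and high CHIR (open), as log2(normalized count + 1), with symbols for replicates 1 to 3. In low CHIR KO replicate 1 stays at the level of CTRL or lower, apart from Krt23 (5.37 normalized counts against 2.12 or less), while KO replicates 2 and 3 in low CHIR lie above all CTRL libraries in high CHIR for Notum, Fzd10, Krt23 and Mab21l1, among them or above for Axin2 and Sp5, and below them for Lef1 and Wnt4.

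The CHIR-induced genes as a set lay higher in the KO on each date, by a median log2 difference of 0.16 on date 1, 0.42 on date 2 and 0.79 on date 3, against 0.0096, -0.0095 and -0.0030 for all genes tested. Of the 776, 185 (23.8%) were more than 2-fold higher on both dates 2 and 3, a share of 2.77% among all genes, and 63 (8.12%) on all 3 dates, against 1.11%. The CHIR-repressed genes had date medians of 0.33, -0.073 and -0.16. The median over the fit was 0.48 for the induced and 0.014 for the repressed set.

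Across all genes, 74 were called higher in β-catenin KO and none lower (limma, adjusted p below 0.05 with a log2 fold change beyond 0.5 either way), that is 0.443% of 16691. At an unadjusted p under 0.05, 1163 genes were higher (6.97%) and 614 lower (3.68%). edgeR called 130 higher (0.779%) and 1 lower, and DESeq2 384 higher and 22 lower, with 72 and 74 of the 74 among them. The log2 fold changes of the 74 ran from 0.94 to 5.74 with a median of 1.85, and their median differences were 1.74, 1.93 and 1.60 on dates 1, 2 and 3. Each of the 74 was higher on all 3 dates, as were 16.7% of all genes. In 58 of the 74 every KO library was above every CTRL library (5.72% of all genes), and in 49 every KO library was also above the 4 low CHIR libraries of α-catenin KO and QCKO (3.21%). Of the 74, 27 (36.5%) belonged to the CHIR-induced set, which holds 4.65% of all genes, and 3.48% of that set was called. A single called gene was in the CHIR-repressed set, and 46 were in neither set, which does not mean that they did not respond to CHIR.

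The number of called genes rested on the pairing and on single libraries. Without the date as a block in limma 11 genes were called, all among the 74, and none with only the 6 libraries and no date (819 at an unadjusted p under 0.05). Leaving out CTRL replicate 2 or KO replicate 2 gave 28 and 26 calls, CTRL replicate 3 or KO replicate 3 gave 36 each, CTRL replicate 1 gave 47 and KO replicate 1 gave 103. Without date 1 in either group 74 genes were again called, but only 33 were the same genes, and 39 of them were CHIR-induced. That date was left out after the split between libraries had been seen, so this count is a description.

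**Figure D3:**
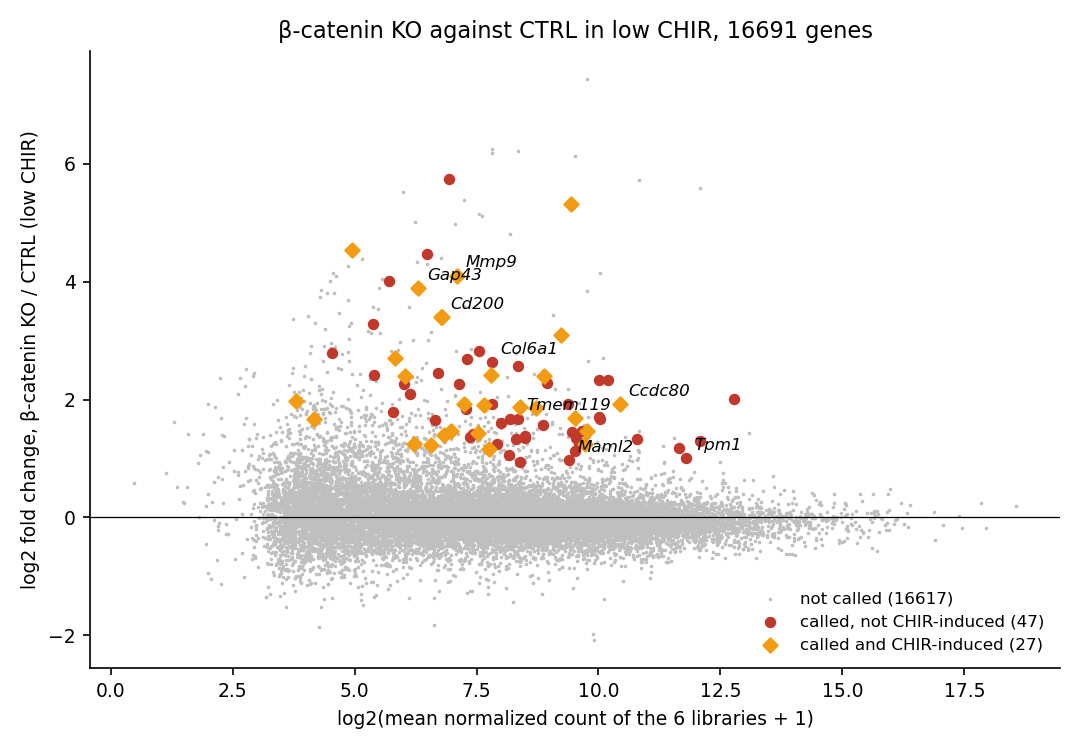
Log2 fold change of β-catenin KO over CTRL in low CHIR against mean normalized count for the 16691 genes tested. All 74 called genes lie above 0, 27 of them CHIR-induced (orange diamonds), and genes that were not called are in grey.

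Of the 74 called genes 33 have a symbol (0.838% of the 3939 tested genes with one), and these are the ones that can be named. Symbols come from the authors' tables of other comparisons, none of which holds β-catenin KO, so the genes with a name are those that were selected for a difference between CHIR conditions or in α-catenin KO or QCKO. The 10 largest changes among those with a mean of at least 100 over the 6 libraries and no overlap between the groups are described first, beginning with secreted proteins. *Mmp9*, a matrix metalloproteinase, had normalized counts of 16.96, 14.1 and 9.53 in CTRL replicates 1 to 3 and 320.3, 318 and 141 in β-catenin KO replicates 1 to 3. That is 259.7 ± 103 (SD, n = 3) in KO against 13.5 ± 3.75 (SD, n = 3) in CTRL (log2 fold change 4.11 ± 0.57 SE, adjusted p = 0.00318). It was far above CTRL in all 3 KO libraries, with log2 differences of 4.16, 4.40 and 3.75 on the 3 dates, and the α-catenin KO and QCKO libraries in low CHIR held 21.5 to 64.6. *Col6a1*, a chain of collagen VI, had 120.5, 89.9 and 12.7 in CTRL and 565, 416 and 151 in β-catenin KO (log2 fold change 2.63 ± 0.47 SE, adjusted p = 0.0205). *Ccdc80*, a secreted matrix protein, had 751, 636 and 399 in CTRL and 2118, 2446 and 2007 in β-catenin KO (log2 fold change 1.92 ± 0.24 SE, adjusted p = 0.00236), and *Pgf*, a growth factor of the VEGF family, 64.3, 72.6 and 49.7 in CTRL and 315, 196 and 211 in β-catenin KO (log2 fold change 1.92 ± 0.28 SE, adjusted p = 0.00476). These genes were chosen to have no overlap between the groups, so KO replicate 1 lay above CTRL in all 4 by that choice. *Col6a1* alone overlapped the α-catenin KO and QCKO libraries (62.8 to 181).

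*Cd200*, an immunoglobulin-family glycoprotein, had 27.7, 6.50 and 19.1 in CTRL and 73.1, 209 and 324 in β-catenin KO (log2 fold change 3.40 ± 0.53 SE, adjusted p = 0.00848). *Gpnmb*, a transmembrane glycoprotein of melanosomes and lysosomes, had 129, 129 and 70.9 in CTRL and 458, 2035 and 802 in β-catenin KO (log2 fold change 3.09 ± 0.60 SE, adjusted p = 0.0339). *Kit*, the receptor tyrosine kinase for stem cell factor, had 152, 139.7 and 129 in CTRL and 344, 616 and 641 in β-catenin KO (log2 fold change 1.87 ± 0.33 SE, adjusted p = 0.0180). Here KO replicate 1 was above every CTRL library too, by the same choice, but lower than replicates 2 and 3. Leaving out single libraries ended these calls in some cases. *Mmp9*, *Ccdc80* and *Pgf* kept theirs without any 1 of the 6 libraries, whereas *Gpnmb* and *Col6a1* lost it without 5 of them, *Kit* without 4 and *Cd200* without 3 (adjusted p up to 0.182, 0.107, 0.117 and 0.0701). With only the 6 libraries and the date block *Cd200* was not called (adjusted p = 0.0630). Without date 1 in both groups *Pgf* was not called (adjusted p = 0.0565) and the other 6 were.

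*Serpinb8*, a protease inhibitor, had 24.99, 10.8 and 15.9 in CTRL and 126, 324 and 146 in β-catenin KO (log2 fold change 3.39 ± 0.53 SE, adjusted p = 0.00862). *Npl*, which breaks down sialic acid, had 209.7, 99.7 and 133 in CTRL and 775, 1122 and 474 in β-catenin KO (log2 fold change 2.39 ± 0.27 SE, adjusted p = 0.00220), and *Sgk1*, a kinase regulated by glucocorticoids and osmotic stress, 259, 99.7 and 150.3 in CTRL and 786, 1151 and 503 in β-catenin KO (log2 fold change 2.28 ± 0.45 SE, adjusted p = 0.0370). KO replicate 2 was the highest of the 3 KO libraries for each. *Npl* kept its call without any 1 of the libraries, *Serpinb8* lost it without CTRL or KO replicate 2 (adjusted p up to 0.0739), and *Sgk1* lost it whichever library was left out (0.0591 to 0.202) and without date 1 (0.0740). *Gap43*, a growth cone protein chosen after its values were seen, had 6.25, 16.2 and 4.23 in CTRL and 62.3, 243 and 138 in β-catenin KO (log2 fold change 3.89 ± 0.47 SE, adjusted p = 0.00220). *Dlgap1*, chosen in the same way, was almost constant within the KO at 657, 649 and 659.8, against 129, 179.8 and 253 in CTRL (log2 fold change 1.86 ± 0.23 SE, adjusted p = 0.00229).

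The other called genes with a symbol, named here after their values were seen, were *Acot7*, *Afap1l2*, *Atxn1*, *AU021092*, *Capg*, *Cdc42ep3*, *Cela1*, *Fmn1*, *Gatm*, *Gm5532*, *Gng11*, *Hmgcll1*, *Hspb8*, *Maml2*, *Me1*, *Npy*, *Rin2*, *Samd5*, *Tmem119*, *Tpm1* and *Zpld1*. *Tpm1*, a tropomyosin, had 2518, 2292 and 2270.5 in CTRL and 3977, 5549 and 4796 in β-catenin KO (log2 fold change 1.00 ± 0.20 SE, adjusted p = 0.0413). *Maml2*, a coactivator of Notch signaling, had 530.2, 373 and 447 in CTRL and 1175, 778 and 725 in β-catenin KO (log2 fold change 0.97 ± 0.17 SE, adjusted p = 0.0180), with every KO library above all 7 other low CHIR libraries. Without date 1 *Tpm1* was still called and *Maml2* was not (adjusted p = 0.107), and each lost its call without 5 of the 6 libraries left out in turn (adjusted p up to 0.200 and 0.0961). Of all 33 called genes with a symbol, 11 kept the call without any 1 library, 4 (*Sgk1*, *Capg*, *Hmgcll1* and *Atxn1*) lost it whichever was left out, and 17 were called without date 1. With only the 6 libraries and the date block, 16 of the 33 were not called, *Tpm1* and *Maml2* among them (adjusted p = 0.0535 and 0.0720).

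The same genes were then read in high CHIR, in other libraries of the same dates. Both comparisons came from the same limma fit and share the date terms and each gene's estimate of spread. Calls in high CHIR are thus not independent of those in low CHIR, and the share of all genes is not a matched background. Of the 74, 58 were also called higher in β-catenin KO in high CHIR and none lower, where 12.1% of all genes were called higher and 5.17% lower. A log2 fold change above 0 was found for 67 of the 74 (51.1% of all genes), with a median of 1.55, and 49 did not overlap between the groups (14.8%). *Npl* differed in both conditions, and in high CHIR it had 433, 678 and 457 in CTRL and 2830.4, 2423 and 2036 in KO (log2 fold change 2.23 ± 0.27 SE, adjusted p = 6.19e-05). *Tmem119* had 209, 149 and 65.6 in CTRL and 846, 516 and 155 in β-catenin KO in low CHIR and 43.1, 21.4 and 9.40 in CTRL and 668, 417 and 207 in KO in high CHIR. Its KO levels overlapped between the conditions, whereas CTRL was lower in high CHIR, and the KO effect was larger there by a log2 of 2.48 (adjusted p = 5.08e-04 for the difference of the effects). *Kit* went the other way. CTRL in high CHIR had 1877, 863 and 1669.9 and KO 960.0, 1391 and 788 (log2 fold change -0.45 ± 0.33 SE, adjusted p = 0.350), and the effect differed from that in low CHIR by a log2 of -2.32 (adjusted p = 0.0139). The difference between the effects was called for 9 of the 74, against 2.4% of all genes. It was smaller in high CHIR for 6 of them (0.641% of all genes) and larger for 3 (1.76%).

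**Figure D4:**
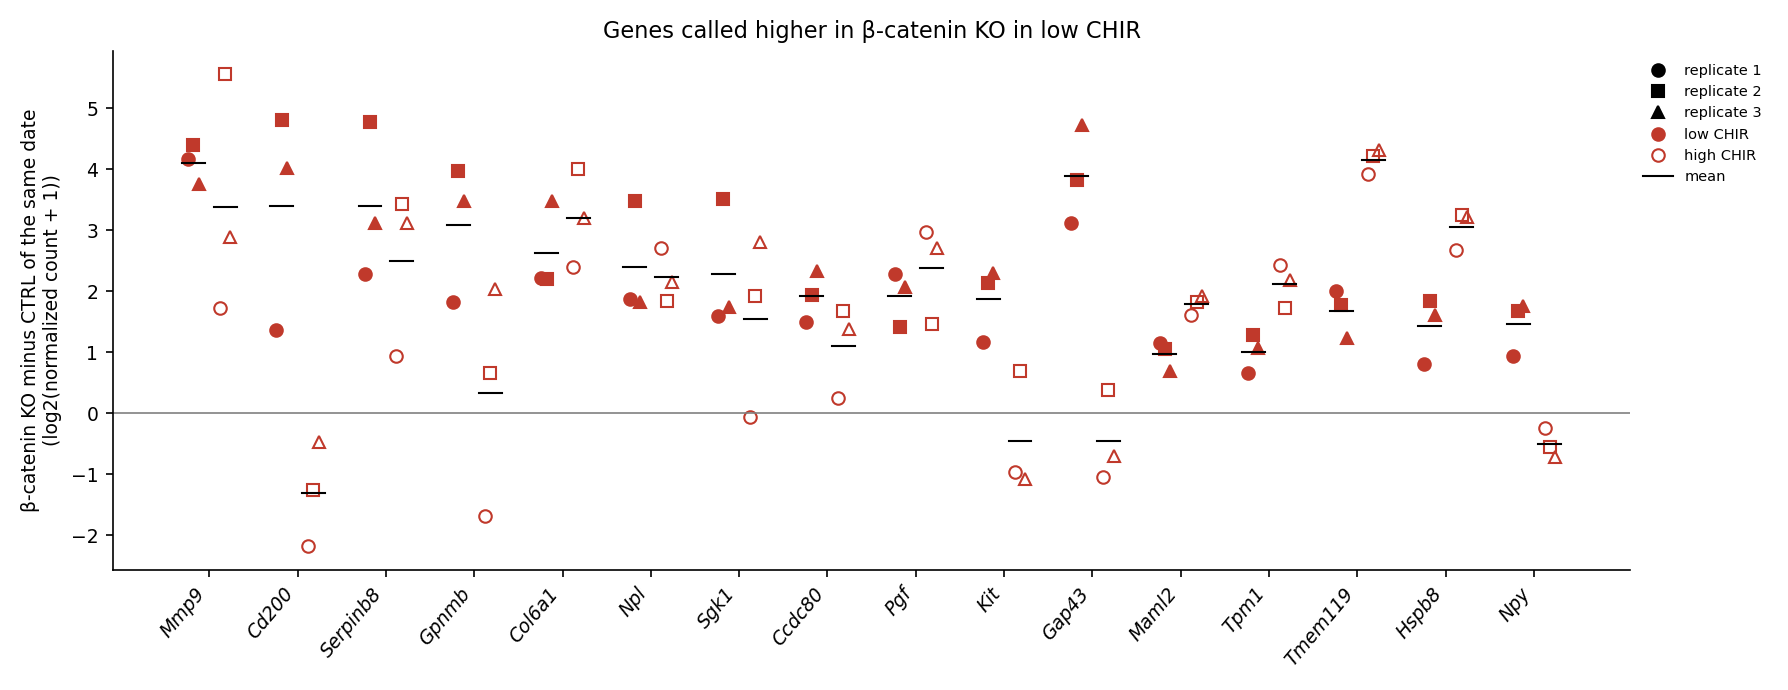
Difference between β-catenin KO and CTRL of the same date, in log2(normalized count + 1), for 16 genes called in low CHIR, in low (filled) and high CHIR (open), with the mean as a line. All points in low CHIR lie above 0, while in high CHIR those of Cd200 and Npy lie below it and those of Tmem119, Hspb8, Maml2 and Tpm1 above their low CHIR values.

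No self-renewal gene was called in low CHIR by limma, edgeR or DESeq2. Of the list's 20 members 12 have a symbol here and were tested, none passed an unadjusted p under 0.05, and their median log2 fold change was -0.098, against -0.0036 for all genes. *Six2*, the transcription factor that defines NPCs, had 1539.6, 1642 and 943 in CTRL replicates 1 to 3 and 1236, 969.6 and 773 in β-catenin KO replicates 1 to 3 (log2 fold change -0.45 ± 0.28 SE, adjusted p = 0.636). *Cited1* had 6965, 3987 and 6898 in CTRL and 9769, 4020.2 and 4732 in β-catenin KO (log2 fold change -0.015 ± 0.31 SE, adjusted p = 0.994), and *Eya1*, a partner of Six2, 4783, 3427 and 3699 in CTRL and 4093, 2729 and 2841 in β-catenin KO (log2 fold change -0.31 ± 0.19 SE, adjusted p = 0.647). The ranges of both groups overlapped for each, but against CTRL of the same date *Six2* was lower in the KO on all 3 dates, by log2 differences of -0.32, -0.76 and -0.29, as was *Eya1*, by -0.22, -0.33 and -0.38. Of all genes tested 16.1% were lower on all 3 dates, so this is a description. *Cited1* differed in sign between dates. *Osr1* had 1129.9, 1276 and 1187 in CTRL and 1343, 863 and 946 in β-catenin KO, *Meox2* 3028, 1729.8 and 1984 in CTRL and 3494, 1743 and 1623 in β-catenin KO, *Wt1* 825, 815 and 926 in CTRL and 796, 705 and 886 in β-catenin KO and *Foxc2* 47.3, 60.7 and 83.6 in CTRL and 87.0, 61.0 and 72.9 in β-catenin KO, with adjusted p from 0.885 to 0.992. In high CHIR the same genes were called higher in the KO. *Six2* had 69.2, 64.1 and 83.8 in CTRL and 798, 409 and 467 in KO in high CHIR (log2 fold change 2.88 ± 0.28 SE, adjusted p = 6.49e-06), and *Meox2* had 47.6, 8.54 and 36.8 and 2233, 649 and 953 (log2 fold change 5.42 ± 0.33 SE, adjusted p = 1.52e-07). All 3 KO libraries were above CTRL in high CHIR for both, replicates 2 and 3 included, but each was below the KO library of the same replicate in low CHIR, a difference that was not tested.

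**Figure D5:**
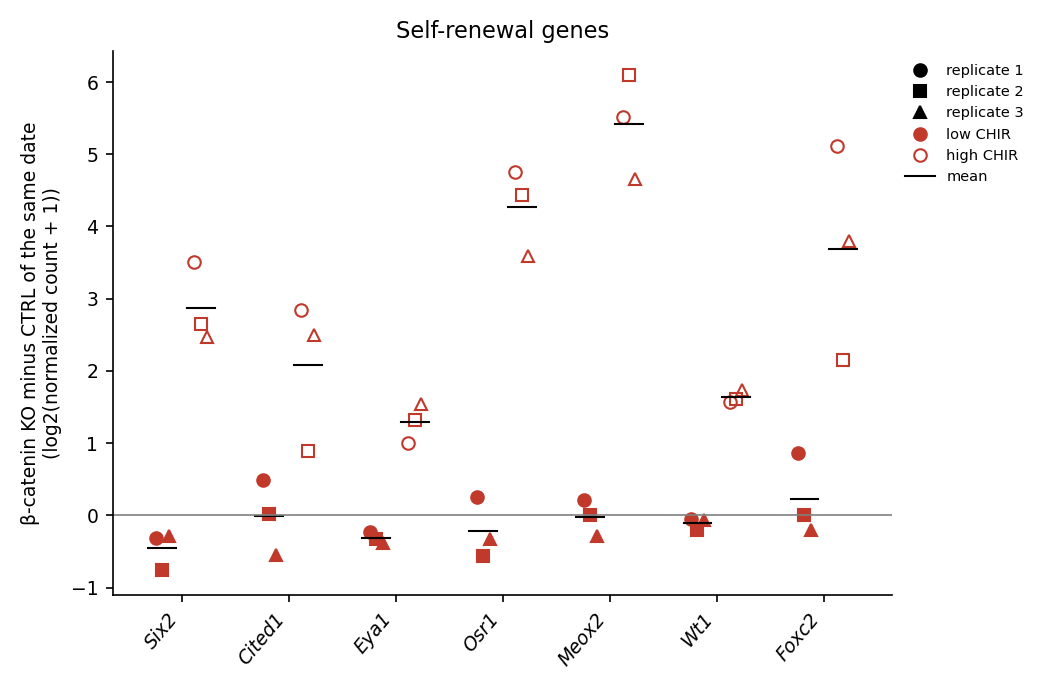
Difference between β-catenin KO and CTRL of the same date, in log2(normalized count + 1), for 7 self-renewal genes in low (filled) and high CHIR (open), with the mean as a line. Low CHIR points lie between -0.76 for Six2 and 0.87 for Foxc2, below 0 on all dates for Six2, Eya1 and Wt1, and all high CHIR points lie above 0.

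Induction genes followed the split between libraries in part. Of 23 members 14 were tested. Limma called none, DESeq2 called *Wnt4* and *Lef1* (2.3% of all genes called higher), and limma without date 1 called *Wnt4* (0.444%). At an unadjusted p under 0.05 in limma 4 were higher and 1 lower (6.97% and 3.68% of all genes). The lower one is *Bcl2*, itself a CHIR-repressed gene, and the median of the 14 was 0.40. Among the CHIR-induced genes 31.1% were higher and 0.644% lower at that p. Members were tested only if they had a symbol, which came from other comparisons, so the share of all genes is not a matched background. *Jag1*, the Notch ligand of the early renal vesicle, had 145, 505 and 694 in CTRL and 185, 664 and 1425 in β-catenin KO (log2 fold change 0.59 ± 0.48 SE, adjusted p = 0.766). *Lhx1*, a transcription factor of the renal vesicle, had 17.9, 95.3 and 131 in CTRL and 14.0, 109 and 327 in β-catenin KO, *Cdh3* 277, 726 and 612 in CTRL and 411, 1143 and 1599.9 in β-catenin KO and *Emx2* 15.2, 108 and 75.2 in CTRL and 11.8, 113 and 232 in β-catenin KO. For these 4 genes KO replicate 3 was the highest of the 6 libraries, and KO replicate 1 was below CTRL of the same date for *Lhx1* and *Emx2* and above it for *Jag1* and *Cdh3*. *Ovol1* had 19.6, 75.8 and 61.4 in CTRL and 11.8, 45.0 and 100.1 in β-catenin KO, *Pax2* 169.6, 355 and 319 in CTRL and 124, 175 and 384 in β-catenin KO and *Cdh4* 2494, 1888 and 2404 in CTRL and 3989, 1546 and 2354 in β-catenin KO, with overlapping ranges. *Bcl2*, an antiapoptotic gene named after its values were seen, was below the CTRL range in every KO library, with 3342, 3066 and 3837 in CTRL and 2257, 2021 and 2855 in β-catenin KO (log2 fold change -0.53 ± 0.20 SE, adjusted p = 0.333). *Cdh6* has no identifier here.

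Of 30 Wnt feedback and target genes 11 were tested. Limma called none, and *Sp5* and *Notum* without date 1 (0.444% of all genes called higher). DESeq2 called *Lef1*, *Sp5* and *Notum* (2.3% of all genes called higher). In limma 4 were higher and none lower at an unadjusted p under 0.05 (6.97% and 3.68% of all genes), and the median was 0.41, with date medians of -0.0033, 0.77 and 0.70. Members without a symbol were not tested, and genes with a symbol were selected for differences in other comparisons. Among the CHIR-induced genes 31.1% were higher and 0.644% lower at that p, so the share of all genes is not a matched background. *Tcf7* had 172, 157 and 152 in CTRL and 111, 282 and 309.9 in β-catenin KO and *Lgr5* 561, 250.2 and 359 in CTRL and 356, 232 and 305 in β-catenin KO. *Cd44*, an adhesion receptor also listed as a Wnt target, was above CTRL in every KO library, with 4672, 2895 and 3137 in CTRL and 6401, 4929 and 4806 in β-catenin KO (log2 fold change 0.61 ± 0.23 SE, adjusted p = 0.329). *Myc*, of the same list, was below CTRL of the same date in every KO library (16.1% of all genes were), with 1149.6, 2366 and 1600.4 in CTRL and 892, 1396 and 1479 in β-catenin KO, and was not called by limma. These 4 genes were named after their values were seen.

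The rest of the pathway was covered sparsely. Of 23 ligands and R-spondins 3 were tested, of 18 receptors 12, of 13 destruction complex members 1 (*Axin2*), of 15 nuclear partners 6 and of 21 inhibitors 6. Limma and edgeR called none, and DESeq2 called *Wnt4*, *Fzd6*, *Fzd10*, *Lef1*, *Notum* and *Dkk2* higher and *Fzd2* lower, beside 2.3% higher and 0.132% lower among all genes. Their medians were 0.37, -0.0022, 1.38, 0.012 and 0.33. Among receptors, *Fzd6* had 8.03, 42.2 and 32.8 in CTRL and 15.0, 169 and 145 in β-catenin KO, high in KO replicates 2 and 3 alone. *Fzd2* was below CTRL in every KO library, with 1669, 1971 and 1696 in CTRL and 1246, 934 and 1126 in β-catenin KO (log2 fold change -0.70 ± 0.17 SE, adjusted p = 0.0809). Among inhibitors, *Dkk2* was above CTRL in every KO library, with 198, 106 and 117 in CTRL and 529, 272 and 225 in β-catenin KO (log2 fold change 1.23 ± 0.31 SE, adjusted p = 0.103). These 3 genes were named after their values were seen.

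Cadherin and catenin genes, the adhesion partners of β-catenin, gave no call in limma, edgeR or DESeq2 among the 14 tested of 40 (median 0.13, 3 higher and none lower at an unadjusted p under 0.05, against 6.97% and 3.68% of all genes). Here too only members with a symbol were tested, and of the CHIR-induced genes 31.1% were higher at that p. *Cdh2* had 4920.4, 3857 and 2241 in CTRL and 4806, 3277 and 1786 in β-catenin KO (log2 fold change -0.20 ± 0.31 SE, adjusted p = 0.914) and *Cdh11* 5112, 3594 and 4295 in CTRL and 7670.0, 4008 and 3513 in β-catenin KO (log2 fold change 0.15 ± 0.22 SE, adjusted p = 0.908). *Ctnna1*, which encodes α-catenin, had 10082, 7749 and 9634 in CTRL and 11092, 7918 and 9118 in β-catenin KO (log2 fold change 0.03 ± 0.13 SE, adjusted p = 0.975), with a difference far smaller than the spread between libraries. *Cdh13* and *Ctnnd2* showed the split, with 101, 200.4 and 233 in CTRL and 114, 597 and 839 in β-catenin KO for *Cdh13* and 27.7, 22.7 and 46.6 in CTRL and 21.5, 196 and 177 in β-catenin KO for *Ctnnd2*. The last 3 genes were named after their values were seen.

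Other pathways were described by their counts, to be read against the 0.838% of genes with a symbol that limma called. In the Notch list 1 of 7 tested genes was called (*Maml2*; median 0.087), and in the collagen, laminin and integrin list 1 of 18 (*Col6a1*; median 0.37). Limma called no member of the 5 tested in the FGF and ERK list (median 0.084), the 8 of the BMP and TGFβ list (0.25), the 4 of the retinoid list (0.52) or the 3 of the interferon list (0.30). In these lists DESeq2 further called *Tgfb2*, as did edgeR, *Aldh1a3*, as did limma without date 1, and *Col18a1*. Of all genes, DESeq2 called 2.3% higher, edgeR 0.779% and limma without date 1 0.444%. Among the members of these lists *Bmp7*, a survival factor of NPCs, had 23.2, 74.7 and 54.0 in CTRL and 19.3, 427 and 399.6 in β-catenin KO, and the retinaldehyde dehydrogenase gene *Aldh1a3* 241, 98.6 and 223 in CTRL and 195, 1703 and 1517 in β-catenin KO, both high in KO replicates 2 and 3 alone. Of the p53 response list 9 were tested and limma called none (median 0.32). Its member *Cdkn1a*, the cell cycle inhibitor p21, was higher in the KO on each date (16.7% of all genes were), with 826, 2532 and 1681 in CTRL and 1965, 6502 and 4509.7 in β-catenin KO (log2 fold change 1.34 ± 0.34 SE, adjusted p = 0.101), but the ranges overlapped. DESeq2 called it (adjusted p = 0.00614), as did limma on only the 6 libraries with date as a block. Of the proliferation list 2 were tested, both lower at an unadjusted p under 0.05 and on all 3 dates (3.68% and 16.1% of all genes), and neither was called. *Pcna* had 6458, 5519 and 7097 in CTRL and 3207, 5146 and 5889 in β-catenin KO and *Birc5* 3386, 2589 and 3177 in CTRL and 1180.0, 2482 and 2444 in β-catenin KO, with KO replicate 1 the lowest of the 6 libraries for both and every KO library below CTRL for *Birc5* (adjusted p = 0.409 and 0.350). The genes of this paragraph were named after their values were seen.

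Markers of the labelled cell type were present. Of 8 NPC markers 6 have a symbol here, with a summed level of 11502 to 15412 in CTRL and 9461 to 17362 in β-catenin KO. Among other cells of the kidney, 2 of 13 stroma markers (*Meis1* and *Meis2*) summed to 3221 to 3819 in CTRL and 2328 to 2967 in KO. The 5 tested of 13 ureteric epithelium markers summed to 318 to 1457 in CTRL and 507 to 1044 in KO, and 2 of 8 endothelium markers (*Tek* and *Plvap*) to 340.1 to 453 in CTRL and 266 to 324 in KO. KO sums lay below all CTRL sums for the stroma and endothelium markers and overlapped them for the others. Limma called no marker in these lists, and DESeq2 called the ureteric marker *Gata3*. The podocyte, proximal tubule, leukocyte and erythroid lists have no member with a symbol here, and the part of other cells in the results was not tested.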

How the data were processed

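Normalized mRNA-seq levels of 31130 genes in 20 libraries were analysed. The signal values deposited by the authors are read counts, each library scaled by 1 size factor of its own. Per the labels, STAR, featureCounts, Salmon and DESeq2 were used, and the builds GRCm38, GRCh38 (human) and mm10 are named, all with no roles given, so the build used for counting is not known. All values above 0 were whole multiples of the library's smallest step to within 0.01 of a read, so read counts were recovered, less certainly in 2 libraries with a size factor close to 1, β-catenin KO low CHIR replicate 2 among them. The authors' 7 comparison tables hold fold changes and p-values for other groups. Only their symbols were used (4316 genes).

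Levels were compared as log2(normalized count + 1) with limma 3.58.1 in R 4.3.3 (8 group means, date as a block, mean-variance trend, Benjamini-Hochberg) for genes with a mean of at least 10 over the 20 libraries. This scale understates changes of low genes. The dates pair the samples: library names share them, and deviations from the group means correlated at 0.462, 0.354 and 0.487 within dates and from -0.502 to 0.0658 between them. edgeR 4.0.16 and DESeq2 1.42.0 on recovered reads, other filters, pseudocounts and scalings, and leaving out each library were alternatives. Fits without and with only date 1, and the count without CHIR-induced genes, were added after seeing the data. The members, lists and tests were chosen with earlier results of these data known, and fits were tested on simulated data. Genes named are those of the study, the 10 largest called changes each way with a mean of at least 100, no overlap and 1 sign on all dates, and the 5 CHIR-induced genes with the widest range among KO libraries. Others are said to be chosen after their values were seen.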

Additional observations from a re-analysis of the deposited data

Results flagged for a closer look

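The effect of β-catenin KO differed between the CHIR conditions, by the interaction in limma (log2 fold change in high CHIR minus that in low CHIR), for 23 of the genes named. Among the genes called in low CHIR the difference was -2.32 for *Kit* (adjusted p = 0.0139), -1.96 for *Npy* (adjusted p = 0.0139), -2.40 for *Hmgcll1* (adjusted p = 0.0132), -2.32 for *AU021092* (adjusted p = 0.0325), -4.34 for *Gap43* (adjusted p = 0.00237) and -4.70 for *Cd200* (adjusted p = 0.00291). *Gap43* had 6.25, 16.2 and 4.23 in CTRL and 62.3, 243 and 138 in β-catenin KO in low CHIR and 293, 401 and 607 in CTRL and 142, 523 and 375 in KO in high CHIR, so both groups were high there. *Cd200* had 369, 281 and 259 in CTRL and 80.9, 116 and 187 in KO in high CHIR. The difference was 2.48 for *Tmem119* (adjusted p = 5.08e-04), 1.62 for *Hspb8* (adjusted p = 0.0488) and 1.73 for *Cdc42ep3* (adjusted p = 0.0457).

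Of the genes not called in low CHIR, the difference was 1.60 for *Eya1* (adjusted p = 0.00527), 3.18 for *Bcl2* (adjusted p = 3.87e-05), 1.33 for *Cd44* (adjusted p = 0.0416), 1.74 for *Wt1* (adjusted p = 2.06e-04), 2.09 for *Cited1* (adjusted p = 0.0197), 4.34 for *Dkk2* (adjusted p = 1.24e-04), 3.46 for *Foxc2* (adjusted p = 0.0123), 4.48 for *Osr1* (adjusted p = 4.43e-05), 5.45 for *Meox2* (adjusted p = 3.86e-05) and 3.33 for *Six2* (adjusted p = 2.95e-04). These are CHIR-repressed genes, lower in CTRL in high CHIR than in low CHIR, and higher in the KO than in CTRL in high CHIR. The difference was -4.51 for *Wnt4* (adjusted p = 0.0230), -3.95 for *Aldh1a3* (adjusted p = 0.0328), -2.24 for *Cdh3* (adjusted p = 0.0301) and -3.28 for *Fzd6* (adjusted p = 0.0300), all CHIR-induced, where the KO lay above CTRL in low CHIR in replicates 2 and 3 and below CTRL on average in high CHIR. The interaction was called for 2.4% of all genes tested. No group of 4 or more libraries was compared, so single libraries were not screened as outliers.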

How the results depend on the processing

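With the replicate block (date) 74 genes were called, all higher. The number stayed within 1.5 times this with no filter (89), only genes averaging 100 or more (62), a pseudocount of 0.25 (72) or 5 (92, of which 91 higher and 1 lower), a log2 fold change over 1 (72), quantile normalization (67) and only the 6 libraries with the block (51), but 57 to 72 of the 74 were among the calls in the first 6 of these settings and 37 in the last. It was 11 with no replicate block (1145 genes at an unadjusted p under 0.05), and 0 with only the 6 libraries and no block (819). edgeR called 131 (130 higher, 1 lower) and DESeq2 406 (384 higher, 22 lower). Leaving out 1 library gave 26 to 103 calls, 26 to 103 of them higher and 0 to 1 lower. Chosen after seeing the data, date 1 alone gave 20 calls (1 higher, 19 lower), none shared with the 74, from a single pair whose spread was taken from the other groups, and leaving CHIR-induced genes out of the count gave 47. The median log2 fold change of the CHIR-induced set was 0.88 with the set defined at a log2 fold change over 2, and 0.35 to 0.59 under the others. That of the repressed set ran from -0.10 to 0.072. *Cited1* changed sign with quantile normalization (0.056), edgeR (0.010) and DESeq2 (0.0029), as did *Meox2* with quantile normalization (0.012). Leaving out 1 library changed the sign of *Cited1* (-0.29 to 0.18), *Meox2* (-0.18 to 0.12), *Cdh4* (-0.26 to 0.48), *Cdh11* (-0.072 to 0.29), *Foxc2* (-0.061 to 0.49), *Lhx1* (-0.13 to 1.25), *Cdh2* (-0.43 to 0.11), *Ovol1* (-0.69 to 0.0095) and *Ctnna1* (-0.039 to 0.068), none of which was called. The cause was not tested. The alternatives were run for 74 genes given by name (not the 74 called), and the others of them kept their direction, but on date 1 by itself the difference opposed the fit in 15, among them *Axin2*, *Notum*, *Syk*, *Wnt4* and *Tcf7*. Depth limits *Sp5*, *Krt23*, *Mab21l1* and *Gm5532*, with at most 3 reads in each CTRL library.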
